A study of Mus musculus with 5 samples.

Results

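Heat shock proteins and co-chaperones are the proteins that fold, refold and hold other proteins. They were followed here in bulk RNA from the striatum of adult mice of the Adcy5 R419W knock-in line (KI, n = 2 libraries, replicates 1 and 3) and of their wild-type littermates (WT, n = 3 libraries, replicates 1, 2 and 3). The labels give no treatment, no age beyond adult, no sex and no zygosity of the allele. Adcy5 is the adenylyl cyclase that makes most striatal cAMP, and the series concerns striatal cAMP in disorders with excess movement. The labels do not say whether each library came from its own animal. A p-value here reflects how far these 5 libraries scatter, and part of that scatter may be technical. The counts do not show the allele itself.

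The members are the mouse protein-coding genes whose symbols begin with Hspa, Hspb, Hspd, Hspe, Hsph, Hsp90, Dnaja, Dnajb, Dnajc, Bag, Cct, Pdia, Stip1 or Hsf, the numbered families by their numbers. GENCODE M21, an annotation of GRCm38, holds 100 such genes. The reads lie at GRCm38 positions while the features they were counted over carry coordinates of another build, so each feature was named by the GRCm38 exons under it and not by its own label. Of the 100 genes, 37 had a feature of their own, among 12537 genes named in this way in the whole table. A further 25 were covered only by features that also lie over another protein-coding gene, and 38 had no feature. The 33 genes that passed the filter on low counts were tested. By textbook location 22 of these act in the cytosol or nucleus, 7 in the endoplasmic reticulum (ER; 4 in its lumen and 3 in its membrane) and 3 in mitochondria, and Cct8l1 was not classed.

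Chaperones work in relays. Hsp70 proteins clamp exposed stretches of unfolded clients in cycles of ATP binding and hydrolysis. J proteins (the Dnaj families) bring the clients and trigger hydrolysis, while exchange factors such as Bag1, Hspbp1 and the Hsp110 proteins open the clamp again. Stip1 bridges Hsp70 to Hsp90, and the barrel-shaped CCT complex folds actin and tubulin. The ER has its own set, led by the Hsp70 protein Hspa5 (BiP), the Hsp90 protein Hsp90b1 and the protein disulfide isomerases, which make and reshuffle disulfide bonds in secreted and membrane proteins. Unfolded protein in the cytosol induces its chaperones through heat shock factor 1 (Hsf1) and the heat shock element in DNA. Unfolded protein in the ER acts through Atf6 and other sensors, and part of that response passes through the ER stress element. In neurons J proteins also serve vesicle traffic: auxilin (Dnajc6) strips clathrin coats.

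Both elements were searched for in the promoters, and the matches are printed because they show which members carry the letters of the cytosolic or of the ER response. RefSeq promoter windows of 300 bases (250 before and 50 after each start, GRCm38.p6) were at hand for 82 of the 100 genes and 34 of the 37 with a feature. The heat shock element was searched as GAANNTTCNNGAA and as TTCNNGAANNTTC, which between them read the same on both strands. It lay in 0.603% of 32851 windows of all genes, or in 0.662% of the genes. Among the chaperones with a window it was found in 2 of 57 cytosolic or nuclear genes, 0 of 17 ER genes and 2 of 7 mitochondrial genes. The mitochondrial genes were Hspe1 and Hspd1, which share a promoter between them. The cytosolic ones were Dnajb6 and Hsph1, and in Hsph1 it follows the start of transcription. The ER stress element was searched on both strands as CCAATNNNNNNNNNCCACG and lay in 0.119% of all windows. It was found in 4 of the 17 ER genes with a window (Hspa5, Hsp90b1, Pdia6 and Dnajc3) and in 0 of the 57 cytosolic or nuclear ones. The share over all genes was 0.137%. In the windows printed, no heat shock element overlaps an ER stress element. Each sequence is given on the gene's own strand with the match in capitals.
Hspe1, heat shock element, chr1:55088047-55088083, plus strand: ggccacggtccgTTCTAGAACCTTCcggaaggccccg
Dnajb6, heat shock element, chr5:29735840-29735876, plus strand: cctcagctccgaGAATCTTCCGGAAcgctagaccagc
Hsph1, heat shock element, chr5:149636288-149636304, minus strand: cagaTTCTGGAAAGTTC
Hspa5, ER stress element, chr2:34772013-34772055, plus strand: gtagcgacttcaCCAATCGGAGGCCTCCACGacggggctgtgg
Hsp90b1, ER stress element, chr10:86705626-86705668, minus strand: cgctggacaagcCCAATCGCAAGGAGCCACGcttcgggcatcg
Pdia6, ER stress element, chr12:17266479-17266521, plus strand: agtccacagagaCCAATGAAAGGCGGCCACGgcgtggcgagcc
Dnajc3, ER stress element, chr14:118937815-118937857, plus strand: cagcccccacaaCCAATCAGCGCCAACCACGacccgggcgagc
Hspe1 holds a second, overlapping match 5 bases downstream, and Hsp90b1 a second match on the other strand. Of these genes, Hspe1, Hsph1 and Pdia6 had a feature of their own. A match describes the letters and says nothing about binding in these samples.

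The libraries held 6595105 to 7910584 counts, so the level that a count of 0 allows was at most 0.379 to 0.455 in CPM (counts scaled to a fixed library total), taken as 3 counts per library and for counting error alone. Pairs of libraries correlated at 0.9333 to 0.9484 on log2 CPM. Of 12 marker genes of spiny projection neurons, the main striatal cell type, 4 had a feature, none at 0. Their summed level was 8281 to 10790 CPM in WT and 6966 to 7672 CPM in KI. Most of this sum was Penk alone, at 6722 to 8271 CPM in WT and 5296 and 5903 CPM in KI. The log2 fold changes were -0.41 for Penk, -1.03 for Rgs9 and -0.63 for Pde10a, but 0.14 for Tac1. The 2 measured of 9 choroid plexus and ependyma markers summed to 37.9 to 71.2 CPM in 4 libraries and to 2104 CPM in KI replicate 3, where transthyretin (Ttr) alone stood at 2093 CPM. The 3 measured of 7 cortical markers summed to 386.8 to 830.4 CPM in WT and to 455.6 and 422.4 CPM in KI. The summed markers of oligodendrocytes (5 of 8 measured) were at 2622 to 3330 CPM in WT and at 2600 and 2484 CPM in KI. Those of astrocytes (3 of 7) were at 133.4 to 157.7 CPM in WT and at 124.7 and 131.3 CPM in KI. Those of microglia (2 of 8) were at 21.4 to 28.6 CPM in WT and at 17.2 and 21.2 CPM in KI. Both KI libraries were lower in each of these sums, but the nearer one lay only just under the WT range. The log2 fold changes of the single glial markers ran from -0.74 for Gfap to 0.01 for Mog. The sums of endothelium and pericytes overlapped. In bulk tissue fewer cells of a type, less RNA per cell and a change of single marker genes cannot be told apart.

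No chaperone gene passed the test in KI against WT (edgeR quasi-likelihood test, Benjamini-Hochberg adjusted p under 0.05 over 13665 features). The background was 14 of those features, or 0.102%. At an unadjusted p under 0.05 there were 2 chaperone genes of 33, Dnajb5 and Hspbp1, against 6.4% of all features. DESeq2 called 1 chaperone gene, Dnajb5, but also more features in the whole table, 128 against the 14 of edgeR. With limma voom 0 chaperone genes were called, with 52 features called in the whole table. The fitted log2 fold changes of the 33 genes lay between -0.80 and 0.70, with a median of 0.09 and 21 above 0. The same median over all features was -0.00, with 49.7% above 0. Both KI libraries lay above all 3 WT libraries for 5 genes (Dnajb5, Bag1, Hspa4, Hsph1 and Cct2), or 15.2%, against 11.3% of all features. Both lay below for 1 gene (Hspbp1), or 3%, against 11.1% of all features. All 6 of these genes act in the cytosol or nucleus, as do 22 of the 33 tested.

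**Figure D1:**
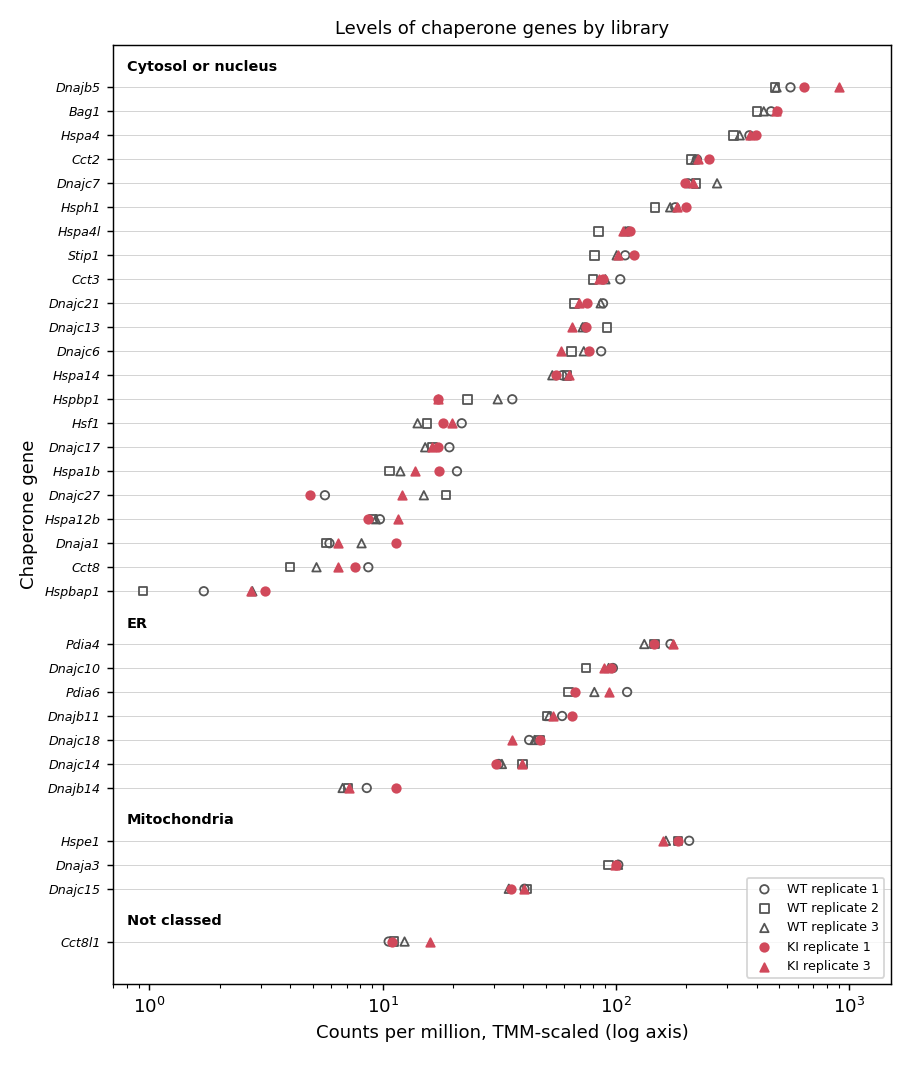
Levels of the 33 tested chaperone genes in TMM-scaled CPM (log axis) in each of the 5 libraries, grouped by cell compartment; open grey symbols are WT libraries and filled red symbols KI libraries. Dnajb5 stands at 637.0 and 899.4 CPM in KI against 479.7 to 559.0 CPM in WT, while the WT and KI ranges of each ER gene overlap.

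Among the cytosolic J proteins, Dnajb5 came nearest to the threshold. Dnajb5 is a class B J protein that works with Hsp70, and the gene lies on GRCm38 chromosome 4, 42949814 to 42959425, plus strand, with its 5936 exon bases wholly inside its feature. Its level was 559.0, 479.7 and 487.2 CPM in WT replicates 1 to 3 and 637.0 and 899.4 CPM in KI replicates 1 and 3. Both KI libraries were above every WT library, and KI replicate 3 was far above KI replicate 1. The fitted log2 fold change was 0.59 (SE 0.14, 95% interval 0.30 to 0.89), a 1.51-fold difference, with an unadjusted p of 0.0008135 and an adjusted p of 0.1308 by edgeR. Without KI replicate 3, the library high in Ttr, the log2 fold change was 0.33 (adjusted p 0.9648 by edgeR). Without KI replicate 1 it was 0.82 (adjusted p 0.03438 by edgeR). The part in this difference of the choroid plexus signal was not tested. Nor was that of the lower marker sums of spiny neurons, or the narrowly lower ones of glia, in KI. The adjusted p was under 0.05 with DESeq2 (0.002214), without the filter on low counts (edgeR, 0.0001312) and without WT replicate 1 (edgeR, 0.01016). It was above 0.05 without WT replicate 2 (edgeR, 0.5676), without WT replicate 3 (edgeR, 0.678) and with limma voom (0.06182).

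**Figure D2:**
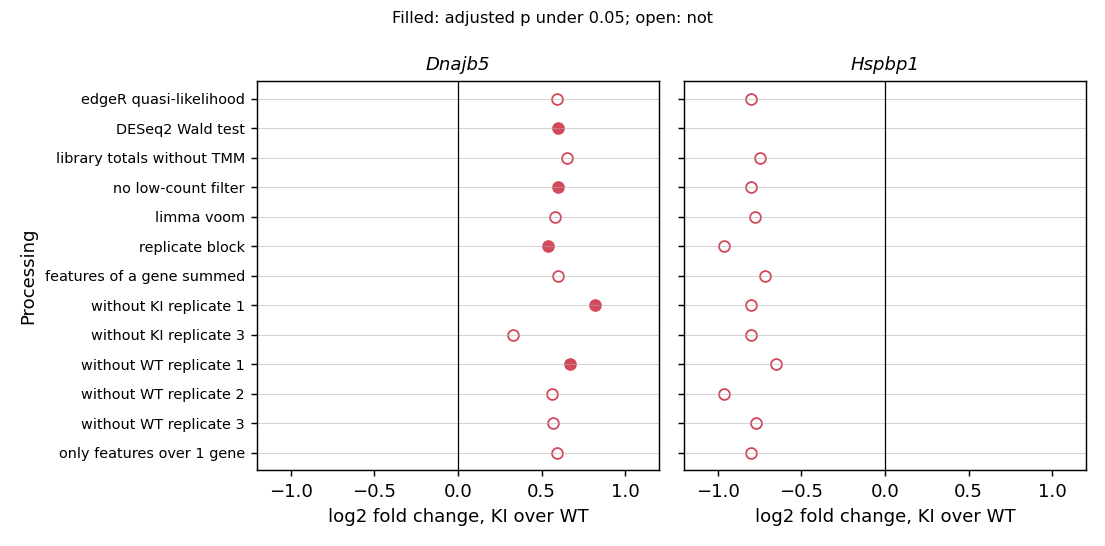
Fitted log2 fold changes (KI over WT) of Dnajb5 and Hspbp1, with 1 row for each way of processing and a filled symbol where the adjusted p was under 0.05. Dnajb5 lies above 0 in every row, from 0.33 to 0.82, and Hspbp1 below 0 in every row, from -0.96 to -0.65, with no row for DESeq2, which gave Hspbp1 no adjusted p.

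Of the other 7 cytosolic or nuclear J proteins tested, 6 had a fitted difference below 0 and 1, Dnaja1, above, each with a 95% interval that held 0. Dnajc7, whose tetratricopeptide repeats bind Hsp70 and Hsp90, stood at 203.5, 219.6 and 270.9 CPM in WT and at 197.2 and 213.4 CPM in KI, a log2 fold change of -0.17 (SE 0.14). WT replicate 3 was the highest library and the groups overlapped. Dnajc6, auxilin, stood at 86.3, 64.4 and 72.7 CPM in WT and at 76.7 and 58.3 CPM in KI, a log2 fold change of -0.14 (SE 0.18). Only 33 of its 5909 exon bases were covered. Dnaja1, a class A J protein of the cytosolic Hsp70 cycle, was at 5.75 to 8.11 CPM in WT and at 11.4 and 6.44 CPM in KI, a log2 fold change of 0.43 (SE 0.43) over 74 covered bases. That feature also covers the microRNA gene Mir207, so reads from either cannot be told apart, and without KI replicate 1 the log2 fold change was -0.03. Dnajc13, which acts on endosomes, had a log2 fold change of -0.18 (SE 0.16) over 2902 covered bases and one of 0.41 (SE 0.43) in a second feature over 100 bases. The ribosome assembly factor Dnajc21 had one of -0.15 (SE 0.17). Dnajc27 was the least even of them, at 5.65, 18.7 and 15.0 CPM in WT and 4.88 and 12.1 CPM in KI (log2 fold change -0.62, SE 0.51). Here both replicates numbered 1 were low, in WT and in KI. Dnajc17, a nuclear J protein, had a log2 fold change of -0.01 (SE 0.28).

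The cAMP response element TGACGTCA, which reads the same on both strands, was searched after these values had been seen, because the allele lies in an adenylyl cyclase. It lay in 1.79% of all promoter windows and, among the 82 chaperone genes with a window, in Dnajc27 alone. It is shown with its flanks and the match in capitals.
Dnajc27, cAMP response element, chr12:4082546-4082573, plus strand: cgggccccgcaaTGACGTCAcggcgcgc
The groups overlapped for this gene, as given above, and none of the motifs searched lay in the windows of Dnajb5.

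The exchange factors that release clients from Hsp70 did not all lie on 1 side of 0. Bag1 has its whole 1349 exon bases covered and stood at 461.8, 402.3 and 429.5 CPM in WT and at 491.7 and 483.1 CPM in KI. Both KI libraries were above all WT libraries, but the log2 fold change was 0.18 (SE 0.11, 95% interval -0.06 to 0.41, adjusted p 0.8914 by edgeR). Hspa4, an Hsp110 protein, stood at 372.6, 318.6 and 338.6 CPM in WT and at 397.0 and 375.0 CPM in KI, with a log2 fold change of 0.17 (SE 0.11, 95% interval -0.08 to 0.41, adjusted p 0.9289 by edgeR). KI replicate 3 exceeded WT replicate 1 only narrowly. A second, smaller feature over Hspa4 gave 0.32 (SE 0.20). Hsph1, another Hsp110 protein and the carrier of a heat shock element printed above, stood at 179.2, 147.0 and 170.5 CPM in WT and at 199.5 and 181.7 CPM in KI, a log2 fold change of 0.20 (SE 0.13; by edgeR, adjusted p 0.9158). Its feature covers 50 exon bases. Hspa4l, a further Hsp110 protein, had a log2 fold change of 0.12 (SE 0.16) with overlapping groups.

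Hspbp1 lay the other way. It encodes an exchange factor that binds Hsp70 and restrains the ubiquitin ligase Stub1, and lies on GRCm38 chromosome 7, 4660521 to 4685068, minus strand. Its level was 35.9, 23.1 and 31.1 CPM in WT and 17.2 CPM in both KI libraries, each below every WT library. The log2 fold change was -0.80 (SE 0.26, 95% interval -1.36 to -0.24), with an unadjusted p of 0.008747 and an adjusted p of 0.4491 by edgeR. This rests on 154 of 1892 exon bases. A second feature over 109 bases of Hspbp1 gave WT counts of 20, 67 and 7 and KI counts of 33 and 21, with a log2 fold change of -0.26 (SE 0.80) and overlapping groups.

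The Hsp70 proteins themselves were mostly out of reach: Hspa8, the constitutive Hsp70 of neurons, had no feature, nor had Hspa1a, and neither had the cytosolic Hsp90 genes Hsp90aa1 and Hsp90ab1. Hspa1b, the stress-induced Hsp70, was at 10.7 to 20.8 CPM in WT and at 17.5 and 13.7 CPM in KI, a log2 fold change of 0.11 (SE 0.34). This value is uncertain, since Hspa1a is a near-identical copy, reads placed at several sites were left out of the counts, and the feature lies over 3 further genes that are not protein coding. Hspa14, a ribosome-bound relative, had a log2 fold change of 0.03 (SE 0.17) and the endothelial relative Hspa12b one of 0.12 (SE 0.36). Stip1, the bridge to Hsp90, stood at 109.4, 80.7 and 100.6 CPM in WT and at 119.9 and 101.8 CPM in KI, a log2 fold change of 0.19 (SE 0.16; by edgeR, adjusted p 0.9739). WT replicate 2 was the lowest library and the groups overlapped.

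Hsf1, the factor that switches on the cytosolic genes, stood at 21.8, 15.5 and 14.1 CPM in WT and at 18.2 and 19.8 CPM in KI. Its log2 fold change was 0.15 (SE 0.29), and a second feature of 2023 covered bases gave -0.01 (SE 0.13). The smallest, of few counts, gave 1.55 (SE 1.46). The fitted values of these features lay on both sides of 0. Hspbap1, which binds the small heat shock protein Hspb1, had the highest fitted value of the set, 0.70 (SE 0.87), at 0.936 to 2.76 CPM in WT and 3.12 and 2.72 CPM in KI, with overlapping groups.

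Of the CCT complex, 3 subunits had a feature of their own. Cct2 stood at 222.1, 209.8 and 218.3 CPM in WT and at 249.7 and 223.5 CPM in KI, a log2 fold change of 0.13 (SE 0.12; by edgeR, adjusted p 0.988), and its second feature gave 0.11 (SE 0.14). KI replicate 3 was above WT replicate 1 by little, and without KI replicate 1 the log2 fold change was 0.04. Cct3 stood at 104.2, 79.7 and 90.0 CPM in WT and at 88.1 and 84.3 CPM in KI, a log2 fold change of -0.08 (SE 0.15). Cct8, over 41 covered bases, was at 4.01 to 8.67 CPM in WT and at 7.59 and 6.44 CPM in KI, a log2 fold change of 0.23 (SE 0.48). The subunits thus gave fitted values on both sides of 0, each with a 95% interval that held 0.

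The ER genes did not separate the genotypes in any of the 7 tested members, against 11.3% of features with KI above and 11.1% with KI below. Their log2 fold changes lay between -0.10 and 0.31, with a median of 0.06 and 5 of 7 above 0. Pdia4, a disulfide isomerase of the lumen with 1298 covered bases, stood at 171.1, 146.3 and 132.1 CPM in WT and at 145.0 and 175.0 CPM in KI. Its log2 fold change was 0.09 (SE 0.15, 95% interval -0.22 to 0.41, adjusted p 0.9994 by edgeR). The KI libraries lay within or just above the WT range.

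Pdia6, the isomerase whose promoter carries the ER stress element printed above, stood at 111.5, 62.4 and 80.7 CPM in WT and at 66.7 and 93.6 CPM in KI. Both KI libraries fell inside the WT range, and the log2 fold change was -0.08 (SE 0.22, 95% interval -0.56 to 0.40). Dnajb11, the J protein that serves BiP on secreted clients, stood at 58.7, 50.5 and 51.6 CPM in WT and at 64.8 and 53.7 CPM in KI, a log2 fold change of 0.14 (SE 0.17, 95% interval -0.23 to 0.52). KI replicate 1 was the highest library, and KI replicate 3 lay within the WT range. Dnajc10, a J protein that reduces disulfides of misfolded clients, stood at 96.9, 74.4 and 92.9 CPM in WT and at 95.3 and 89.0 CPM in KI, a log2 fold change of 0.06 (SE 0.15). Its feature also covers the gene Gm13752. The fitted signs of Pdia4, Pdia6 and Dnajc10 changed when single libraries were left out.

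The membrane J proteins of the ER had a median log2 fold change of 0.02. Dnajc18 stood at 42.4, 46.9 and 44.7 CPM in WT and at 47.4 and 35.8 CPM in KI (log2 fold change -0.10, SE 0.19), so its KI libraries were the highest and the lowest of all. Dnajc14, an escort of the dopamine D1 receptor out of the ER, stood at 31.4, 39.8 and 32.4 CPM in WT and at 30.6 and 39.4 CPM in KI (log2 fold change 0.02, SE 0.22). Dnajb14 was at 6.73 to 8.54 CPM in WT and at 11.4 and 7.18 CPM in KI (log2 fold change 0.31, SE 0.40). Dnajc16 was measured but too low to test, at 0 to 0.991 CPM.

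**Figure D3:**
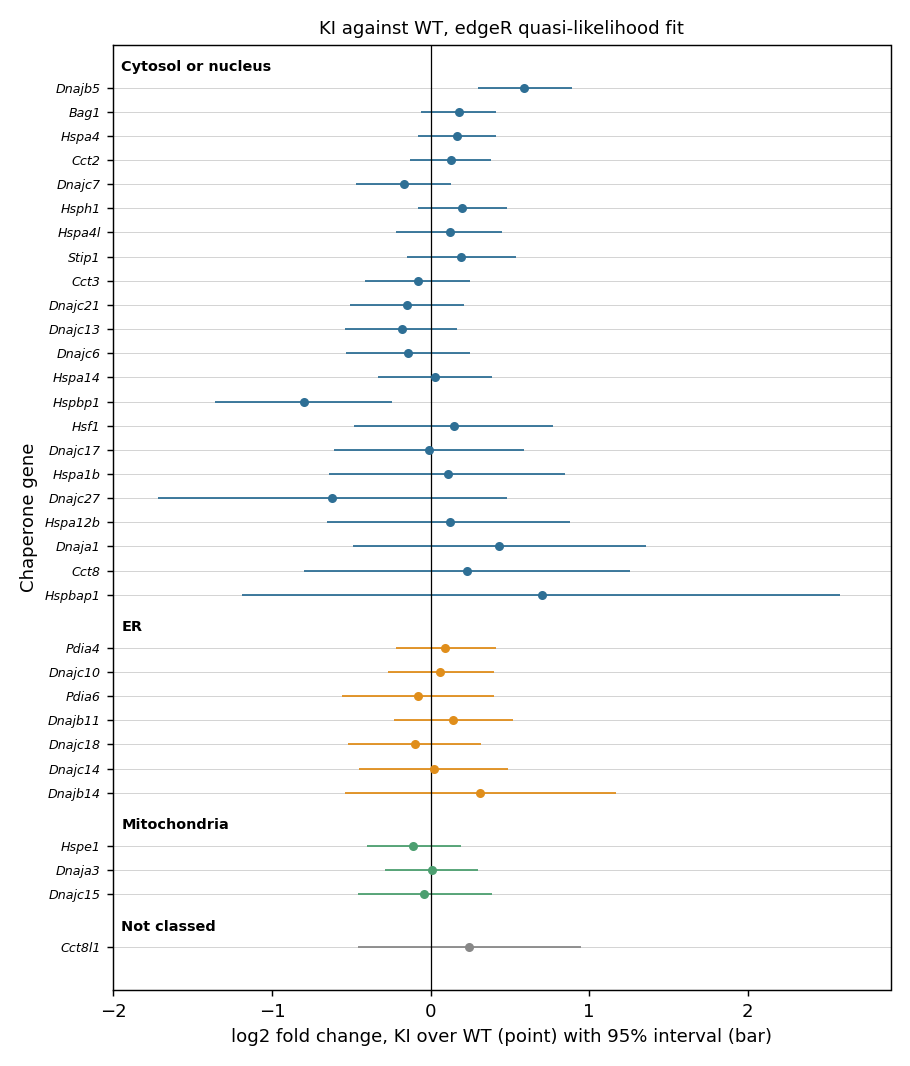
Fitted log2 fold change (KI over WT, points) with its 95% interval (bars) for the 33 tested chaperone genes, coloured by compartment. The intervals of Dnajb5 (0.30 to 0.89) and Hspbp1 (-1.36 to -0.24) leave out 0 before adjustment, and those of the other 31 genes, all 7 ER genes included, hold it.

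Set beside each other, the 22 cytosolic or nuclear genes had a median log2 fold change of 0.12 with 14 above 0, and the 7 ER genes one of 0.06 with 5 above 0. Both KI libraries lay above all WT libraries for 5 of 22 cytosolic genes (22.7%, against 11.3% of all features) and below them for 1 (4.5%, against 11.1%), and for 0 of 7 ER genes in either direction. The difference between the compartments was not tested, and its sign changed with the replicate block and without WT replicate 2. Over the 3 WT libraries alone, the median deviation of a compartment's genes from their own means had an SD of 0.109 for the cytosolic and 0.112 for the ER genes (log2(CPM + 1) scale), so the cytosolic median of 0.12 was about as large as this spread and the ER median smaller. With genes of under 100 covered bases left out, a limit chosen after seeing the data, the medians were 0.11 over 18 cytosolic and 0.06 over 7 ER genes. The mitochondrial genes had a median of -0.04. Hspe1, the co-chaperonin that caps the Hspd1 barrel, stood at 205.7, 184.4 and 163.5 CPM in WT and at 183.9 and 159.2 CPM in KI (log2 fold change -0.11, SE 0.14). Dnaja3 stood at 102.2, 92.6 and 101.9 CPM in WT and at 99.9 and 98.7 CPM in KI (log2 fold change 0.01, SE 0.14) and Dnajc15, a J protein of the import motor, had a log2 fold change of -0.04 (SE 0.20). The sign of both J proteins changed with single libraries left out, and that of Dnajc15 also without TMM scaling.

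Libraries of the same genotype differed from each other in both compartments. Relative to each gene's mean over the 5 libraries, the median cytosolic gene stood at 0.04, -0.17 and -0.04 in WT replicates 1 to 3 and at 0.10 and 0.01 in KI replicates 1 and 3 (log2(CPM + 1) scale). The median ER gene stood at 0.08, -0.14 and -0.09 in WT and at 0.09 and -0.00 in KI on the same scale. WT replicate 2 was low and WT replicate 1 and KI replicate 1 were high in both compartments, while the medians over all features lay between 0.00 and 0.01. WT replicate 2 was the lowest library for 17 of the 33 genes, against 19.8% of all features. WT replicate 1 was the highest for 12 and KI replicate 1 for 11, against 22.6% and 18.3% of all features. In WT replicate 2 the summed spiny neuron and cortical markers were also at their highest (10790 and 830.4 CPM), and their part in these chaperone levels was not tested.

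**Figure D4:**
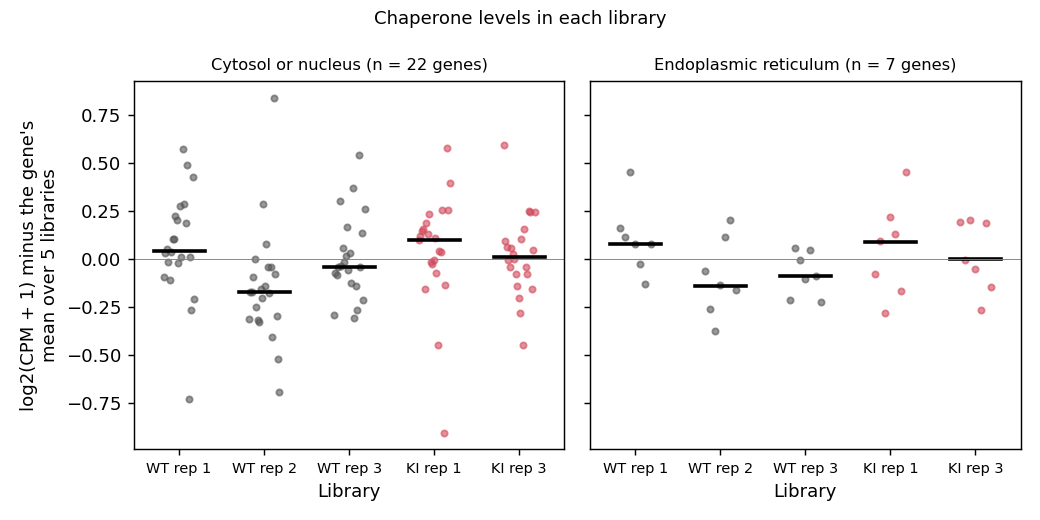
Deviation of each chaperone gene's log2(CPM + 1) from its mean over the 5 libraries, with 1 point per gene, for 22 cytosolic or nuclear genes (left) and 7 ER genes (right); black bars are medians. The bar of WT replicate 2 is the lowest in both panels, at -0.17 and -0.14.

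The partners of the chaperones, taken from lists written with earlier results of these data known, gave 1 gene past the threshold. Of 53 listed genes of ER stress and folding, 20 were tested and 1 passed, Wfs1, against 0.102% of all features. Its passing is therefore no independent support for the list. Wfs1, wolframin, is a membrane protein of the ER that guards its calcium and restrains its stress response. Wfs1 stood at 209.5, 161.9 and 204.5 CPM in WT and at 424.8 and 349.1 CPM in KI. Every KI library was far above every WT library. These values rest on 465 covered exon bases. Its log2 fold change was 1.01 (SE 0.14, adjusted p 0.01081 by edgeR). Without KI replicate 1, WT replicate 2 or WT replicate 3 the adjusted p by edgeR was 0.08006, 0.09511 or 0.1706, with log2 fold changes of 0.86, 0.91 and 1.06. Without KI replicate 3, the library high in Ttr, the log2 fold change was 1.15 (adjusted p 0.02751 by edgeR). The part of the marker sums given above in this difference was not tested.

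The fitted values of the ER list lay on both sides of 0: its 20 tested genes, Wfs1 included, had a median log2 fold change of -0.02, with 9 above 0 and 11 below. Both KI libraries lay above all WT libraries for 5 of the 20 (25%, against 11.3% of features). Besides Wfs1 these were Hyou1, Uggt1, Sel1l and Tmx3, named after their values were seen. Hyou1, the ER counterpart of the Hsp110 proteins, stood at 211.5, 181.4 and 185.7 CPM in WT and at 224.5 and 218.4 CPM in KI (log2 fold change 0.20, SE 0.12, adjusted p 0.8938 by edgeR). Uggt1, which senses misfolded glycoproteins, had a log2 fold change of 0.16 (SE 0.13), Sel1l, of ER-associated degradation, one of 0.13 (SE 0.12) and the disulfide isomerase Tmx3 one of 0.19 (SE 0.18). Atf6, the sensor that acts on the ER stress element, was the 1 gene with both KI libraries below, also named after its values were seen. It stood at 150.4, 180.2 and 167.8 CPM in WT and at 130.5 and 112.2 CPM in KI (log2 fold change -0.45, SE 0.14, unadjusted p 0.00551, adjusted p 0.3709 by edgeR).

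Of 36 listed cytosolic partners 8 were tested, and 0 passed, with a median log2 fold change of -0.01. An unadjusted p under 0.05 was found for 1 of them, against 6.4% of all features. The prefoldin subunit Pfdn1, which hands clients to CCT, stood at 117.0, 86.3 and 92.8 CPM in WT and at 84.0 and 68.0 CPM in KI (log2 fold change -0.38, SE 0.17, adjusted p 0.77 by edgeR). Fkbp8, a membrane-bound co-chaperone of Hsp90, stood at 961.8, 956.9 and 884.8 CPM in WT and at 800.2 and 838.8 CPM in KI (log2 fold change -0.19, SE 0.10, adjusted p 0.8319 by edgeR). These were the 2 of 8 with both KI libraries below all WT libraries (25%, against 11.1% of all features). Of 15 listed mitochondrial partners 6 were tested and 0 passed, again with 1 at an unadjusted p under 0.05, and their median was 0.04. That gene was Tomm70a, the import receptor on which Hsp70 and Hsp90 dock, at 476.4, 559.2 and 558.5 CPM in WT and at 334.4 and 346.5 CPM in KI. Its log2 fold change was -0.64 (SE 0.11, adjusted p 0.06338 by edgeR), and its adjusted p was 1.042e-05 with DESeq2, 0.01849 with limma voom and 0.0007143 with edgeR without WT replicate 1. With any other single library left out it did not pass, at 0.2609 to 0.4699 by edgeR. Spg7, a protease subunit of the inner membrane, had the next smallest p, with a log2 fold change of 0.44 (SE 0.25) and overlapping groups.

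Several members stayed out of reach. In the ER lumen Pdia3, Dnajb9, Dnajc3 and Hspa13 had no feature, and Hspa5, Hsp90b1, Pdia2, Pdia5 and Dnajc1 shared theirs with another protein-coding gene. In the cytosol 31 genes had none, among them Bag3, Dnajb1, Dnaja2, Dnajc5, Hsf2 and the small heat shock protein Hspb1, and in mitochondria Hspd1, Dnajc19 and Dnajc30 had none. Hsf2bp, at 0 to 1.11 CPM, was too low to test, and Dnajc5g and Dnajc22 had 0 counts in all 5 libraries. Cct8l1, at 10.6 to 12.4 CPM in WT and at most 16.0 CPM in KI, with overlapping groups, had a log2 fold change of 0.24 (SE 0.33).

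Most members were seen through part of their exons: covered bases ran from 33 in Dnajc6 to all 5936 in Dnajb5, and the remainder of a feature can lie over introns or unannotated sequence whose reads are counted with it. Among the partners named, the covered exon bases were 85 for Pfdn1, 465 for Wfs1, 1571 for Atf6 and 1886 for Tomm70a. Levels were therefore compared between libraries and not between genes.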

How the data were processed

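Raw counts (read pairs per feature) were deposited, made by the authors with featureCounts 2.0.1 against an Ensembl release of GRCm39, without strand and without multi-mapped reads, per the file headers. Reads of a gene and of one that overlaps it on either strand are therefore counted alike. Which aligner and build were used is not given in the sources used here. The table has 53700 features; 33953 lie over no GRCm38 exon and held 1.057% of the counts. Features were laid over GENCODE M21 exons with bedtools 2.31.1 and named by the sole gene, or sole protein-coding gene, there; each gene is represented by its feature of largest overlap. Named features held 57.63% of the counts and features over several genes 41.31%.

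KI (n = 2) was set against WT (n = 3) with edgeR 4.0.16 in R 4.3.3: filterByExpr, TMM scaling and the quasi-likelihood test over all 13665 features that passed. An adjusted p (Benjamini-Hochberg) under 0.05 counted as a pass, and the biological coefficient of variation was 29.8%. The steps were tested on simulated counts with known changes. There edgeR recovered 1 of 50 changes of 1.25-fold, 10 of 50 of 1.5-fold and 35 of 50 of 2-fold. At 4-fold it recovered 49 of 50, and 8 unchanged features were called. Changes of 1.5-fold or less were thus mostly missed. Alternatives were DESeq2 1.42.0, voom of limma 3.58.1, no TMM, no filter, a threshold of 0.1, summed features, features over 1 gene, a replicate block and leaving out each library.

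The genes named are those with a p under 0.05, a written list of well-known chaperones, the 3 highest per compartment and, of each partner list, those that passed or else the 2 of smallest p; the other members named were added to describe their roles. The members and lists were chosen with earlier results of these data known. Protein sequences were not used here.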

Additional observations from a re-analysis of the deposited data

How the results depend on the processing

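The count of all features past the threshold, 14 with edgeR, was 128 with DESeq2, 183 without the filter, 52 with limma voom, 154 with the replicate block and 67 at a false discovery rate of 0.10, and ran from 2 to 161 when single libraries were left out. The count of chaperone genes past it, 0 with edgeR, was 1 with DESeq2, 1 without the filter, 1 with the replicate block and 0 to 1 when single libraries were left out; the gene was Dnajb5 each time. The replicate block rests on the 2 shared numbers, 1 and 3; no label says that they mark a litter or day, and same-numbered libraries deviated together by correlations of 0.111 and 0.07. With it Dnajb5 had a log2 fold change of 0.54 (edgeR adjusted p 0.01784). The medians of the cytosolic and ER genes kept their sign in every setting run, but not their order. With the replicate block the cytosolic median was 0.06 and the ER median 0.08. Without WT replicate 2 they were 0.05 and 0.08. In every other setting the cytosolic median was the higher, though without WT replicate 1 only by little (0.18 and 0.17). Over 26 named genes and 330 recomputed fold changes, 301 kept direction and side of the threshold, 11 newly passed it (Dnajb5 and Tomm70a), 3 no longer did (Wfs1) and 15 changed sign, among them Dnaja1, at 0.43 with all libraries. With the replicate block Dnaja3 was at -0.04, Dnajc10 at -0.04 and Dnajc15 at 0.01, and without TMM Dnajc15 was at 0.01. With single libraries left out, Cct3 ran from -0.17 to 0.03, Dnaja1 from -0.03 to 0.79, Dnaja3 from -0.04 to 0.04, Dnajc10 from -0.04 to 0.15, Dnajc15 from -0.14 to 0.05, Dnajc6 from -0.35 to 0.04, Pdia4 from -0.05 to 0.22 and Pdia6 from -0.35 to 0.17. The causes were not tested. With 2 KI libraries a lone KI library is assumed to vary like the WT ones. Where an interval given above holds 0, neither no change nor a change of a size within it is excluded by these libraries.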

Other observations

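Some well-known chaperones that lack a feature of their own, such as Hspa5 and Hsp90b1, can be seen only together with a neighbour. Others, Hspa8 and Hsp90aa1 among them, had no feature and cannot be seen at all. The feature over Hspa5 (BiP) and Rabepk stood at 441.3, 284.9 and 371.3 CPM in WT and at 382.9 and 458.6 CPM in KI, a log2 fold change of 0.20 (SE 0.16; by edgeR, adjusted p 0.9656), with WT replicate 2 the lowest and overlapping groups. The feature over Hsp90b1 and its neighbours stood at 919.4, 824.5 and 853.3 CPM in WT and at 939.6 and 877.7 CPM in KI, a log2 fold change of 0.07 (SE 0.10). The feature over the mitochondrial Hsp70 gene Hspa9 and Etf1 had a log2 fold change of -0.10 (SE 0.11), and that over Cct5 and Fam173b one of -0.04 (SE 0.11). Of the 24 such features tested, 0 passed the edgeR threshold, against 0.102% of all features. An unadjusted p under 0.05 by edgeR was found for 1, against 6.4% of all features. Of the 24, 8 lay above 0, against 49.7% of all features, with a median of -0.06. The 33 genes with a feature of their own leaned the other way, with 21 above 0 and a median of 0.09. The shared feature with an unadjusted p under 0.05 covers Dnajb13, a J protein of motile cilia, and Ucp2, an uncoupling protein. It stood at 64.0, 59.5 and 53.4 CPM in WT and at 89.4 and 83.7 CPM in KI (log2 fold change 0.55, SE 0.15, adjusted p 0.2878 by edgeR). Reads from these neighbours cannot be told apart.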
